A study of Mus musculus with 16 samples.

Results

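The genes described here encode 9 enzymes that make amino acids other than serine, or that feed their synthesis. They were chosen as a fixed list of symbols: Asns for asparagine, Aldh18a1 and Pycr1 for proline, Pck2 for phosphoenolpyruvate, the transaminases Gpt2, Got1, Got2 and Bcat1, and Glul for glutamine. The list was drawn up with earlier results of these data known. All 9 were found in the deposited table of read counts, which holds 43430 genes, and 7 of them passed the filter on low counts that left 11004 genes for testing. Pycr1 and Bcat1 had only 31 and 41 counts over all libraries and were not tested.

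RNA was sequenced from bone marrow-derived macrophages of C57BL/6J mice, phagocytes grown from marrow cells with macrophage colony-stimulating factor at 20 ng/mL and harvested on day 6. The 4 groups were cells with lipopolysaccharide (LPS) at 100 ng/mL in medium lacking serine, cells with the same LPS in complete medium, cells with no LPS in medium lacking serine, and cells with no LPS in complete medium. LPS is a bacterial cell wall component that switches on inflammatory genes, and RNA was taken 4 h after it. Each group had 4 libraries with replicate numbers. Nothing in the labels ties a replicate to an animal, so part of the spread behind each p-value may be technical.

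Cells that run short of an amino acid accumulate uncharged transfer RNA, which activates the kinase Gcn2 and favours translation of the transcription factor Atf4. Atf4 binds C/EBP-ATF response elements, and asparagine synthetase is the textbook gene with such an element in its promoter. Proline synthesis, mitochondrial phosphoenolpyruvate carboxykinase and several transaminases are also described as parts of the amino acid response, whereas glutamine synthetase is largely controlled by other signals, including degradation of the protein when glutamine is plentiful.

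Promoters are shown for the members that hold the core of a C/EBP-ATF response element. The letters searched were TGATGNAA, on either strand, in windows of 250 bases before to 50 bases after each start from RefSeq on GRCm38.p6. All 9 genes had a window, Bcat1 had 2 windows, and 4 of the 9 genes held a match: Asns, Pycr1, Pck2 and Got1. Of the 27025 genes listed, 4.51% held it, and of the 32851 windows 3.97% did, against 4 of the 10 member windows. The match began 23 bases before the start in Asns, 103 bases before it in Pycr1 and in Pck2, and 102 bases before it in Got1, on the gene's own strand in Asns and Pycr1 and on the other strand in Pck2 and Got1. The sequences are given on the gene's strand, with the match in capitals, from chr6:7693160-7693459 (minus strand), chr11:120643699-120643998 (minus), chr14:55540016-55540315 (plus) and chr19:43524556-43524855 (minus). A match is a description of the letters and not a site. Of the genes with a match, Asns and Pck2 passed the test of serine withdrawal averaged over LPS states. Got1 passed no test of withdrawal, and Pycr1 was not tested. Aldh18a1 and Gpt2 held no match, and passed in LPS-treated cells and averaged over LPS states when libraries were paired by replicate number. A link between match and withdrawal was not tested.
Asns: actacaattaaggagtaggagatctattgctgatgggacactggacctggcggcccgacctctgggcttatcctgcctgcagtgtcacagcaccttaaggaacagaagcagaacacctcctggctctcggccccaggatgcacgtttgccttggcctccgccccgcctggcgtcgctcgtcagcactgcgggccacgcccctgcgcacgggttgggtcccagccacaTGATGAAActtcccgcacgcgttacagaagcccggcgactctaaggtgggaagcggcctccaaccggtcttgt
Pycr1: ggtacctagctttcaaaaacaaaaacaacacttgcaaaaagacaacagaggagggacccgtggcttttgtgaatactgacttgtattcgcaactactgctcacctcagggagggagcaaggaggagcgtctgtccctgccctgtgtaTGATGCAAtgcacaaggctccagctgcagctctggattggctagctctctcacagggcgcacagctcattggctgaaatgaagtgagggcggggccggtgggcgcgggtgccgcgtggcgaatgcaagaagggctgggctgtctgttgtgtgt
Pck2: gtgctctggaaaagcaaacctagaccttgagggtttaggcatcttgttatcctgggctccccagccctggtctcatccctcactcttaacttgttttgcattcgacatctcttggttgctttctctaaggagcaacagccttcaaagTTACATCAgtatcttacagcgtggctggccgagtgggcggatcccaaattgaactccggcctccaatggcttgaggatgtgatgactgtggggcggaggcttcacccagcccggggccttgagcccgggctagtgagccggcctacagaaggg
Got1: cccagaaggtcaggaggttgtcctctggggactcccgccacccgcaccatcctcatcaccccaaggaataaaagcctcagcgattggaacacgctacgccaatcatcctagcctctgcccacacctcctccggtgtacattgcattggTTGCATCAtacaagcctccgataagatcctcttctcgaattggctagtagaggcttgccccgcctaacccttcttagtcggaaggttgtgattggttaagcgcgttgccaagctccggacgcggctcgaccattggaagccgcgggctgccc

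Total counts ranged from 2871477 to 10043362 per library, and the shallowest library was replicate 4 of the untreated cells lacking serine, with 12900 genes detected against 14000 to 16031 in the other 15 libraries. Its top 20 genes held 23.1% of its counts, against 12.3% to 17.3% in the other 15 libraries. For the withdrawals, values and counts that this library moved are also given without it. Replicate 1 of every group was male and the other 12 libraries were female, so sex and replicate 1 cannot be told apart. Macrophage markers, 9 of 10 listed being in the table, summed to 19177 to 30537 CPM in each library, where CPM are read counts scaled to a common library size, while neutrophil and progenitor markers summed to 8.29 to 107 CPM. Group medians of the latter were 12.4 to 22.9 CPM, and the highest library of each group had 81.3 to 107 CPM. Stromal and endothelial markers summed to 0 to 31.3 CPM. Dendritic cell markers summed to 9.55 to 16.4 CPM in LPS-treated and 1.39 to 2.63 CPM in untreated libraries, and their part in the LPS results was not tested. T and NK cell markers summed to at most 0.561 CPM, with Cd3e and Cd3d at 0 in all 16 libraries. In bulk RNA, fewer cells of a type and less RNA per cell cannot be told apart. LPS raised Il1b, which encodes interleukin-1 beta, by a log2 fold change of 9.60 ± 0.42 without serine and 10.55 ± 0.42 with serine (SE).

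Levels are in CPM with library sizes adjusted by TMM, a scaling that sets the typical gene to no change, and are listed for replicates 1 to 4. The TMM factor of the shallowest library was 1.03, against 1.24 to 1.27 in the untreated libraries with serine. Fold changes are from edgeR's quasi-likelihood test over 16 libraries with SE, and adjusted p-values are Benjamini-Hochberg values over 11004 genes with a threshold of 0.05. Since libraries of the same replicate number deviated together, a fit with the replicate number as a block is given where it changes a call. The library kit does not mark strand, but no gene overlapping a member had more than 3 counts in a library.

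Serine withdrawal raised Asns and Pck2. When libraries were paired by replicate number, Aldh18a1 and Gpt2 also passed as higher, in LPS-treated cells and averaged over LPS states. Averaged over cells with and without LPS, Asns was 2.70-fold and Pck2 2.38-fold higher without serine. Got1, Got2 and Glul passed no test of withdrawal. These comparisons ask which biosynthetic enzymes other than those of serine itself changed when serine was removed.

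Asns (ENSMUSG00000029752, mm10 chr6:7675169-7693254, minus strand) encodes asparagine synthetase, which moves the amide nitrogen of glutamine onto aspartate. With LPS, it had 275, 247, 175 and 210 CPM without serine, against 123, 92.7, 61.0 and 72.8 CPM with serine. Without LPS, it had 88.1, 101, 52.6 and 75.9 CPM in cells lacking serine, against 32.0, 39.4, 20.6 and 20.7 CPM in cells with serine. In both settings every library without serine lay above every library with serine. The highest levels were those with LPS and no serine, the lowest those of untreated cells with serine, and the 2 groups between them, LPS with serine and untreated without serine, overlapped (87.3 ± 27.0 and 79.4 ± 20.6 CPM, SD, n = 4 each). The log2 fold change of withdrawal was 1.37 ± 0.26 in LPS-treated cells (edgeR adjusted p = 0.0635), and with the replicate block it was 1.40 ± 0.13 (edgeR adjusted p = 0.000598). In untreated cells it was 1.49 ± 0.26 (edgeR adjusted p = 0.121), and with the block 1.498 ± 0.13 (edgeR adjusted p = 0.000378). Averaged over both LPS states it was 1.43 ± 0.18 and passed the threshold without the block (edgeR adjusted p = 0.00397). Asns was higher without serine in 4 of 4 replicate pairs with LPS and in 4 of 4 without it, which held for 18.7% and 9.03% of all genes tested. In all 4 groups replicates 1 and 2 lay above their group's mean log2 level and replicates 3 and 4 below it.

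Aldh18a1 (ENSMUSG00000025007, chr19:40550257-40588463, minus strand) encodes pyrroline-5-carboxylate synthase, which turns glutamate into the precursor of proline. With LPS, levels were 36.4, 36.1, 20.2 and 30.01 CPM without serine, against 17.6, 18.3, 8.81 and 5.65 CPM with serine. Untreated cells had 18.9, 25.6, 11.3 and 5.40 CPM without serine, against 7.98, 11.3, 6.41 and 6.82 CPM with serine. The groups did not overlap with LPS. They did overlap without LPS, where replicate 4 without serine was the lowest of all 8 untreated libraries. Its log2 fold change of withdrawal was 1.27 ± 0.39 with LPS (edgeR adjusted p = 0.345), and with the replicate block 1.36 ± 0.24 (edgeR adjusted p = 0.0200), a call lost in 6 of the 16 fits with the block that left out a library. In untreated cells the value was 0.96 ± 0.40 (edgeR adjusted p = 0.816), and with the block 0.89 ± 0.25 (edgeR adjusted p = 0.578). Leaving out replicate 4 of the untreated cells without serine, the shallowest library, gave 1.096 with the block (edgeR adjusted p = 0.0103). Averaged over both LPS states the change was 1.12 ± 0.28 (edgeR adjusted p = 0.151), and with the block 1.12 ± 0.17 (edgeR adjusted p = 0.00617). That averaged call held in 16 of 16 fits with the block that left out a library. Aldh18a1 had 16 to 259 counts per library, and Asns had 149 to 1806.

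Pycr1 (ENSMUSG00000025140, chr11:120635712-120643769, minus strand) encodes the mitochondrial pyrroline-5-carboxylate reductase that completes proline synthesis. It had 7 counts over the 4 libraries with LPS and no serine, 6 with LPS and serine, 14 in untreated cells without serine and 4 in untreated cells with serine. These counts are too few for a fold change, and with no filter on low counts it passed the adjusted threshold of edgeR in none of the 6 comparisons.

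Pck2 (ENSMUSG00000040618, chr14:55540266-55550017, plus strand) encodes the mitochondrial phosphoenolpyruvate carboxykinase, which makes phosphoenolpyruvate from oxaloacetate. With LPS it had 46.0, 45.6, 31.4 and 35.1 CPM without serine, against 18.9, 17.8, 9.32 and 11.5 CPM with serine. Without LPS it had 78.7, 82.0, 56.8 and 102 CPM in cells lacking serine, against 46.8, 36.7, 37.2 and 32.4 CPM in cells with serine. Neither pair of groups overlapped, and the level with LPS and no serine (39.5 ± 7.40 CPM) overlapped with that of untreated cells with serine (38.3 ± 6.06 CPM, SD, n = 4 each). Withdrawal gave a log2 fold change of 1.45 ± 0.23 in LPS-treated cells (edgeR adjusted p = 0.0257), a call lost in 8 of 16 fits that left out a library and held in 16 of 16 with the block. In untreated cells it was 1.05 ± 0.21 (edgeR adjusted p = 0.235). There the replicate block gave 1.04 ± 0.17 (edgeR adjusted p = 0.0393), a call lost in 13 of the 16 fits with the block that left out a library, and without replicate 4 of the cells lacking serine 0.85 with the block (edgeR adjusted p = 0.000273). Averaged over both LPS states the change was 1.25 ± 0.16 (edgeR adjusted p = 0.00397). Its cytosolic counterpart Pck1 had 0 counts in all 16 libraries.

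Gpt2 (ENSMUSG00000031700, chr8:85492576-85527560, plus strand) encodes the mitochondrial alanine aminotransferase, which exchanges the amino group between glutamate and alanine. With LPS it had 31.1, 22.9, 18.7 and 21.2 CPM without serine, against 15.3, 14.3, 9.32 and 8.07 CPM with serine. Without LPS it had 20.4, 20.9, 15.3 and 9.44 CPM without serine, against 13.2, 10.0, 13.3 and 13.8 CPM with serine. With LPS the groups did not overlap, whereas in untreated cells they did, replicate 4 without serine again being the lowest library. The log2 fold change was 0.99 ± 0.25 with LPS (edgeR adjusted p = 0.192), and with the block 1.003 ± 0.21 (edgeR adjusted p = 0.0428). In untreated cells it was 0.43 ± 0.24 (edgeR adjusted p = 0.816), and leaving out that library gave 0.55 with the block (edgeR adjusted p = 0.181). The call of Gpt2 with LPS under the block was close to the threshold and was lost in 13 of the 16 fits that left out a library. Averaged over both LPS states the change of Gpt2 was 0.71 ± 0.17 (edgeR adjusted p = 0.145), and with the block 0.70 ± 0.14 (edgeR adjusted p = 0.0411). That averaged call was lost in 14 of the 16 fits with the block that left out a library. The cytosolic paralog Gpt, with 237 counts in all against 1874 for Gpt2, did not pass in either withdrawal, at 0.34 ± 0.43 with LPS and 0.32 ± 0.36 without it.

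Got1 (ENSMUSG00000025190, chr19:43499752-43524605, minus strand) and Got2 (ENSMUSG00000031672, chr8:95864134-95888547, minus strand) encode the cytosolic and the mitochondrial aspartate aminotransferase, which interconvert glutamate and aspartate. Got1 had 29.7, 32.9, 31.6 and 22.8 CPM with LPS and no serine, against 28.6, 26.2, 26.6 and 26.0 CPM with LPS and serine. In untreated cells it had 92.9, 73.3, 76.2 and 95.5 CPM without serine, against 85.7, 68.9, 75.8 and 67.6 CPM with serine. The groups with and without serine overlapped in both settings. Got2 had 41.9, 60.9, 45.4 and 38.6 CPM with LPS and no serine, against 42.4, 57.7, 49.97 and 48.4 CPM with LPS and serine. In untreated cells it had 49.5, 55.4, 53.2 and 44.9 CPM without serine, against 50.8, 61.2, 47.6 and 54.6 CPM with serine. All 4 groups of Got2 overlapped. The withdrawal estimates of Got1 were 0.12 (95% interval −0.16 to 0.41) with LPS and 0.18 (−0.09 to 0.45) without it, on the log2 scale. Those of Got2 were −0.09 (−0.39 to 0.22) with LPS and −0.07 (−0.37 to 0.23) without it, so both intervals of each gene lie below the changes estimated for Asns and Pck2.

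Bcat1 (ENSMUSG00000030268, chr6:144993835-145076184, minus strand) encodes the cytosolic branched-chain aminotransferase. It had 13 counts with LPS and no serine, 9 with LPS and serine, 11 in untreated cells without serine and 8 in untreated cells with serine, each over 4 libraries. The highest single library had 9 of them, and replicate 4 had 0 in every group. The mitochondrial paralog Bcat2, with 3775 counts in all, did not pass in either withdrawal, at 0.03 ± 0.18 with LPS and 0.20 ± 0.17 without it (log2 fold change ± SE).

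Glul (ENSMUSG00000026473, chr1:153899944-153909723, plus strand) encodes glutamine synthetase, which joins ammonia to glutamate. With LPS it had 177, 188, 221 and 246 CPM without serine, against 139, 180, 257 and 241 CPM with serine. Untreated cells had 493, 506, 772 and 776 CPM without serine, against 615, 609, 895 and 1015 CPM with serine. The groups overlapped in both settings. Replicates 3 and 4 lay above their group's mean log2 level in all 4 groups and replicates 1 and 2 below it, the reverse of Asns. In untreated cells Glul was lower without serine in 4 of 4 replicate pairs, which was also the case for 9.53% of all genes tested, with a log2 fold change of −0.30 ± 0.10 under the block (edgeR adjusted p = 0.662). With LPS the estimate was 0.03 ± 0.23 without the block.

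**Figure D1:**
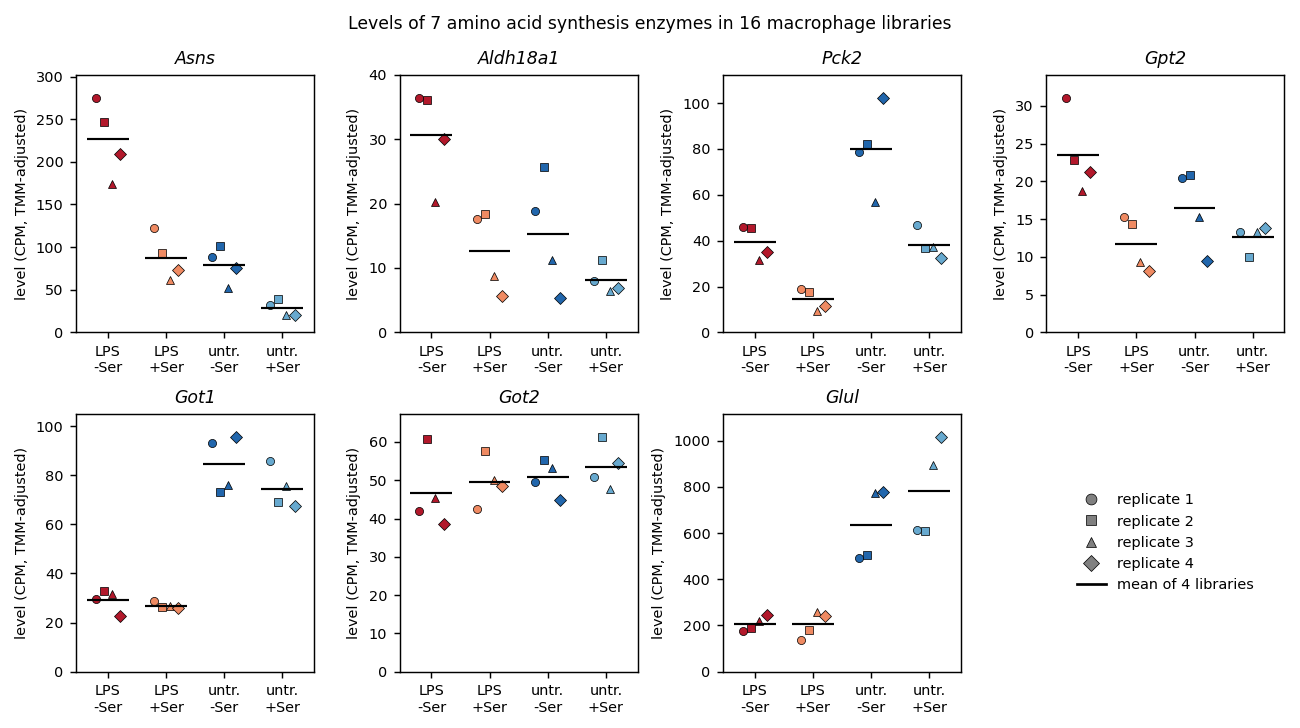
Level of each tested enzyme gene (CPM after TMM adjustment, linear axes from 0) in 16 libraries, with groups along the horizontal axis, a marker for each replicate number and a black line at the mean of 4 libraries. Asns lies highest with LPS and no serine (226 ± 43.7 CPM, SD), Pck2 in untreated cells without serine (79.9 ± 18.6 CPM), and Got1 and Glul are lower in all 8 LPS libraries than in any untreated library, while Got2 overlaps in all groups.

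The members were chosen with earlier results of these data known. Their counts beside the shares of all genes are therefore a description and not a test of the list. Counted over the 7 tested members, 1 passed as higher in the withdrawal with LPS, Pck2, where 0.0545% of all 11004 genes did. With the replicate block 4 members passed as higher there, Asns, Aldh18a1, Pck2 and Gpt2, where 0.663% of all genes did. The same 4 were the members whose groups did not overlap, which held for 4.27% of all genes in that direction. In untreated cells no member and 0% of all genes passed edgeR's test without the block, 3 members passed at an unadjusted p under 0.05 as higher (3.96% of all genes), and DESeq2 called 2 members as higher (0.109% of all genes). With the block 2 members passed as higher, Asns and Pck2, where 0.0818% of all genes did, and the groups of these 2 did not overlap, as for 1.46% of all genes. Averaged over LPS states 2 members passed without the block (0.282% of all genes) and 4 with it (0.745%). Without replicate 4 of the untreated cells lacking serine, the counts with the block were 4 members with LPS, where 4.98% of all genes passed as higher, 3 members in untreated cells (0.63%) and 4 members averaged (5.56%). Without that library and without the block, Asns, Pck2 and Gpt2 passed with LPS (1.01% of all genes), no member passed in untreated cells (0%), and Asns, Aldh18a1, Pck2 and Gpt2 passed in the average (1.42%). No member passed as lower in the withdrawal with LPS (0.00909% of all genes, 0.227% with the block), in that without LPS (0% with and without the block) or in their average (0.0454%, and 0.218% with the block). The median log2 fold change of the 7 members was 0.99 with LPS and 0.43 without it, beside 0.0032 and 0.012 over all genes tested. The authors' deposited tables mark Asns, Aldh18a1, Pck2 and Gpt2 as higher in the withdrawal with LPS (0.596% of the genes listed there) and Asns and Pck2 as higher in that without LPS (0.052%). Their marks do not follow an adjusted p under 0.05 alone. In their comparison of LPS without serine, Aldh18a1 was not marked at an edgeR adjusted p of 0.0176.

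Whether the withdrawal effect differed with and without LPS was tested as the difference between the withdrawals. No member and 0% of all genes passed edgeR's test, with or without the block. Without the block, at an unadjusted p under 0.05 the count of members was 0, where 1.11% of all genes were higher and 1.19% lower, and DESeq2 called 0 members. With the block, Glul gave a log2 difference of 0.35 ± 0.14 (edgeR unadjusted p = 0.0277, edgeR adjusted p = 0.828). For Asns the difference was −0.12 (95% interval −0.88 to 0.65) and for Pck2 0.40 (−0.26 to 1.06), on the log2 scale. Aldh18a1 gave 0.31 (−0.87 to 1.48) and Gpt2 0.56 (−0.17 to 1.30). The intervals of Pck2, Aldh18a1 and Gpt2 include differences as large as a withdrawal effect of the same gene. That of Asns stops short of its withdrawal effects of 1.37 with LPS and 1.49 without it. With the block the difference for Asns was −0.10 ± 0.18 (SE). All 4 intervals include differences other than 0, so like effects in both settings are not shown by these tests.

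**Figure D2:**
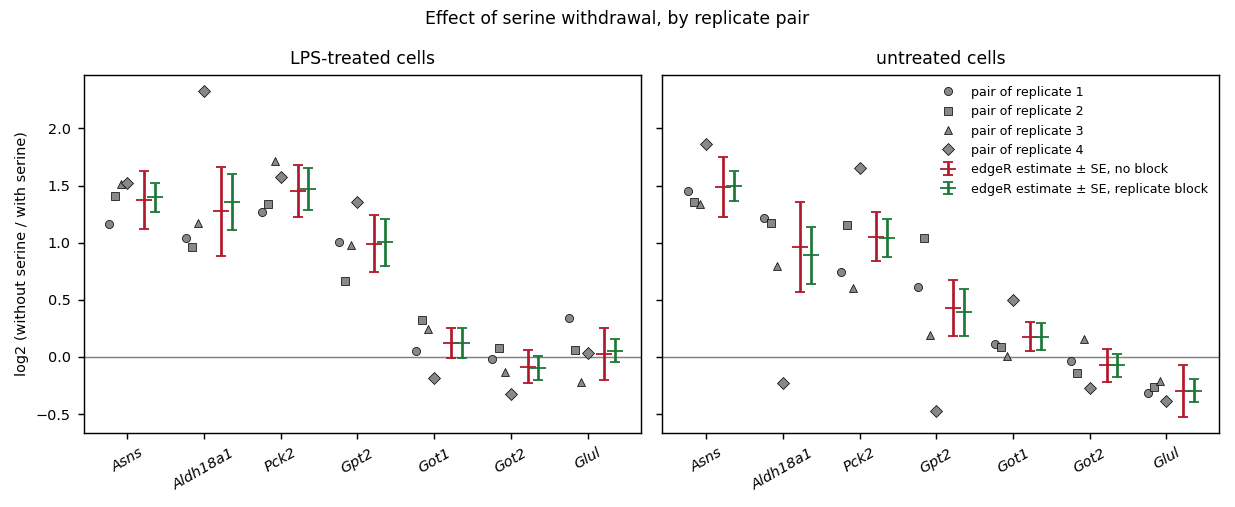
Log2 ratio of the level without serine to the level with serine for each replicate pair (grey markers), with the edgeR estimate ± SE without and with the replicate block, in LPS-treated cells (left) and untreated cells (right). In LPS-treated cells all 4 pairs of Asns, Aldh18a1, Pck2 and Gpt2 lie above 0. In untreated cells the pair of replicate 4 is below 0 for Aldh18a1 and Gpt2, while all 4 pairs of Glul are below 0.

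Genes of the amino acid response that are not among the 9 were read beside them. Averaged over LPS states, Atf4 (0.79 ± 0.13), Ddit3 (1.11 ± 0.22), Trib3 (1.60 ± 0.25), Chac1 (2.03 ± 0.31) and the serine synthesis gene Psat1 (0.71 ± 0.13) passed as higher without serine, with edgeR adjusted p-values of 0.0103 to 0.0462, and Phgdh (1.41 ± 0.33) did not (edgeR adjusted p = 0.104), though with the block it passed at 1.42 ± 0.22 (edgeR adjusted p = 0.00636). The other enzymes, subunits and carriers of the same pathways formed a list of 43 genes, of which 39 were in the table and 29 were tested. None of the 29 passed in either withdrawal, in either direction, with or without the block, where 0% to 0.663% of all genes did in a single direction, so a count of 0 is near the share of all genes. Their median log2 fold change was −0.07 with LPS and −0.01 without it. This list too was chosen with earlier results of these data known.

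LPS moved the members in opposite directions. Asns was 2.85-fold higher with LPS in cells without serine and 3.09-fold higher in cells with serine. Pck2, Got1 and Glul were lower with LPS in both media, and the LPS-treated groups of Got1 and of Glul overlapped between media. These comparisons ask how the inflammatory stimulus changed the same enzymes in each medium, and the levels in each library are those given above.

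Asns gave a log2 fold change with LPS of 1.51 ± 0.26 without serine (edgeR adjusted p = 0.000106) and 1.63 ± 0.26 with serine (edgeR adjusted p = 5.75e-05). Every LPS library lay above every untreated library in the same medium. Aldh18a1 passed without serine at 0.94 ± 0.38 (edgeR adjusted p = 0.0442), where the LPS and untreated libraries overlapped and the call was lost in 8 of 16 fits that left out a library. With serine it gave 0.63 ± 0.40 (edgeR adjusted p = 0.198). Pck2 fell by 1.01 ± 0.22 without serine (edgeR adjusted p = 0.000823) and by 1.41 ± 0.23 with serine (edgeR adjusted p = 5.61e-05), with no overlap between LPS and untreated libraries in either medium. Asns and Pck2 both rose on serine withdrawal and moved in opposite directions with LPS. Gpt2 gave 0.47 ± 0.24 without serine (edgeR adjusted p = 0.105), and with the block 0.48 ± 0.20 (edgeR adjusted p = 0.0497). With serine it gave −0.09 ± 0.25 (edgeR adjusted p = 0.794).

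Got1 fell with LPS by 1.53 ± 0.13 without serine (edgeR adjusted p = 4.86e-08) and by 1.47 ± 0.13 with serine (edgeR adjusted p = 6.80e-08). All 8 LPS libraries, at 22.8 to 32.9 CPM, lay below all 8 untreated libraries, at 67.6 to 95.5 CPM. Got2 gave −0.12 ± 0.14 without serine (edgeR adjusted p = 0.470) and −0.11 ± 0.14 with serine (edgeR adjusted p = 0.540). The mitochondrial form overlapped between groups where the cytosolic form did not. Glul fell by 1.61 ± 0.23 without serine (edgeR adjusted p = 1.71e-05) and by 1.94 ± 0.23 with serine (edgeR adjusted p = 2.28e-06), the largest LPS change among the 7 tested members in each medium under TMM and total-count scaling. Without serine the estimates of Glul and Got1 differed by less than either SE, and under total-count scaling they were −2.17 and −2.08, so their order is not settled. The 8 LPS libraries of Glul held 139 to 257 CPM and its 8 untreated libraries 493 to 1015 CPM. The authors' deposited tables mark Asns as higher and Pck2, Got1 and Glul as lower with LPS in both media. They mark 19.1% of the listed genes as higher and 17% as lower without serine, and 27.9% and 27.5% with serine.

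The count of members has to be read against a broad response. Without serine 2 of 7 members passed as higher with LPS and 3 as lower, where 27.1% and 29.7% of all 11004 genes did, and with serine 1 passed as higher and 3 as lower, where 27.6% and 28.2% of all genes did. Groups did not overlap for 1 member as higher and 3 as lower in each medium, against 25.3% and 22.4% of all genes without serine and 30.7% and 30.9% with serine. With the block Gpt2 was a further member called higher without serine, where 29.4% of all genes were. The median log2 fold change of the members was −0.12 without serine and −0.11 with serine, beside −0.12 and −0.03 over all genes. With LPS many genes change, and the scaling matters: dividing by total counts in place of TMM moved the median of all genes by −0.58 without serine and −0.62 with serine. Under that scaling Asns stayed higher (0.94 and 1.01), and Pck2 (−1.56 and −2.01), Got1 (−2.08 and −2.09) and Glul (−2.17 and −2.56) stayed lower. Got2 then passed as lower in both media (−0.70 and −0.73) and Gpt2 with serine (−0.69), while Aldh18a1 no longer passed without serine (0.35) and Gpt2 without serine turned to −0.11.

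**Figure D3:**
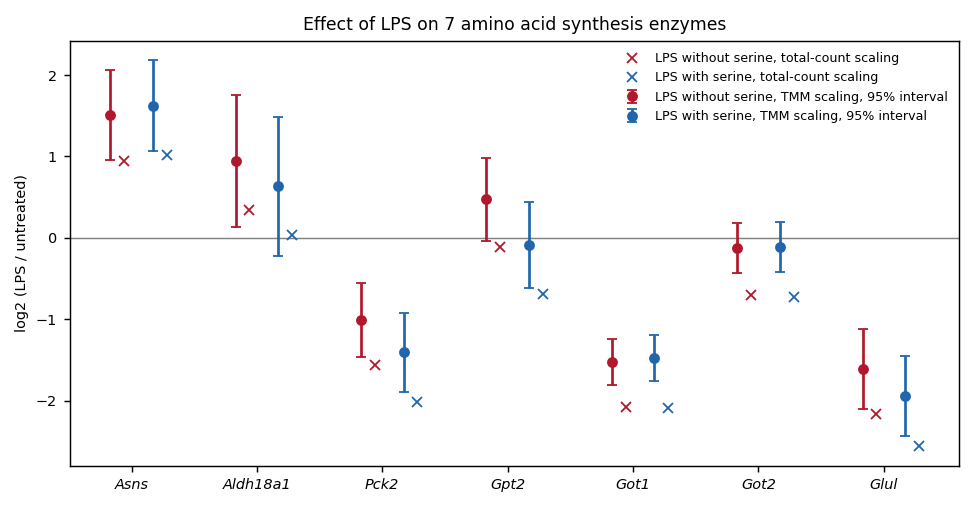
Log2 ratio of LPS-treated to untreated cells for 7 enzyme genes, in medium without serine (red) and with serine (blue), as edgeR estimates under TMM scaling with 95% intervals (circles) and under total-count scaling (crosses). Asns lies above 0 and Pck2, Got1 and Glul lie below 0 under both scalings, while under total-count scaling the estimates of Aldh18a1 lie nearer to 0, those of Got2 lie farther below 0, and that of Gpt2 without serine changes sign.

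A ratio of counts within a library does not depend on the scaling. The log2 ratio of Got1 to Got2 counts was −0.49, −0.88, −0.52 and −0.76 with LPS and no serine, against 0.91, 0.40, 0.52 and 1.09 in untreated cells without serine. With serine it was −0.57, −1.13, −0.91 and −0.89 with LPS, against 0.75, 0.17, 0.67 and 0.31 without LPS. Each LPS library had fewer Got1 than Got2 counts and each untreated library more. The difference was −1.39 without serine and −1.35 with serine, each with an exact two-sided permutation p = 0.0286 over 70 arrangements, the smallest these groups allow, and 0.114 after Benjamini-Hochberg adjustment over 8 comparisons of 2 enzyme pairs. Withdrawal gave differences of 0.21 with LPS (exact permutation p = 0.143) and 0.25 without it (exact permutation p = 0.286). The ratio of Gpt2 to Gpt counts gave exact permutation p-values of 0.171 to 0.971 in the same 4 comparisons. Ratios of Bcat1 to Bcat2 and of Pck2 to Pck1 were not formed, since 1 gene of each pair was below the filter.

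**Figure D4:**
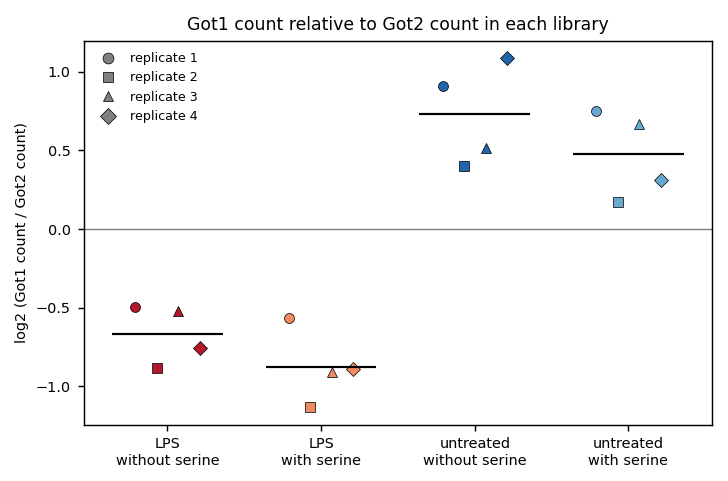
Log2 ratio of the Got1 count to the Got2 count in each of 16 libraries by group, with a marker for each replicate number and a black line at the group mean. All 8 LPS libraries lie below 0 and all 8 untreated libraries above it, with means of −0.66 and −0.88 with LPS and 0.73 and 0.48 without.

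Per kilobase of gene length as deposited, Glul had the highest level of the members in every group. It stood at 43.0 ± 6.55 CPM per kilobase with LPS and no serine, 42.2 ± 11.3 with LPS and serine, 131 ± 32.8 in untreated cells without serine and 162 ± 42.2 in untreated cells with serine (SD, n = 4 each). Asns was the next highest with LPS and no serine, at 32.8 ± 6.34 CPM per kilobase, where its libraries overlapped with those of Glul. With LPS and serine it had 12.7 ± 3.91 and overlapped with Got2 (14.99 ± 1.90). In untreated cells with serine it came below Got2, Got1 and Pck2, at 4.09 ± 1.33 CPM per kilobase, with no overlap with Pck2 above it. Pck2 was the next after Glul in untreated cells without serine, at 23.5 ± 5.47 CPM per kilobase, and overlapped with Got1 (17.6 ± 2.36). Gpt2 and Aldh18a1 followed at 0.688 to 2.69 CPM per kilobase as group means, and Pycr1 and Bcat1 were at 0.0130 to 0.0607.

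Among the related genes LPS moved more than withdrawal did, as over all genes. Without serine 4 of the 29 passed as higher with LPS and 14 as lower, and with serine 5 passed as higher and 9 as lower. These were 13.8% and 48.3% of the list without serine, beside 27.1% and 29.7% of all genes, and 17.2% and 31.0% with serine, beside 27.6% and 28.2%. The largest rise in each medium was Slc25a12, which encodes a mitochondrial aspartate-glutamate carrier, at 2.19 ± 0.20 without serine and 1.94 ± 0.20 with serine (edgeR adjusted p = 1.08e-07 and 3.55e-07). Its paralog Slc25a13 fell by 1.67 ± 0.24 without serine (edgeR adjusted p = 1.97e-05). Aldh4a1, a mitochondrial enzyme of proline breakdown, fell by 1.72 ± 0.29 with serine (edgeR adjusted p = 7.75e-05). Bcat2 fell by 0.51 ± 0.18 without serine (edgeR adjusted p = 0.0205) and gave −0.35 ± 0.17 with serine (edgeR adjusted p = 0.102), and Gpt passed in neither medium.

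The genes whose levels ran closest to each member were found by the root mean square difference of centred log2 CPM over 16 libraries, as a description. For Asns they were Slc1a4 (0.35), Slc7a1 (0.37) and Cars (0.38), where the spread of Asns itself was 1.13. For Aldh18a1 they were Iars (0.34), Aars (0.41) and Slc38a2 (0.43), and for Pck2 Plekhh3 (0.42), Rora (0.46) and Spc25 (0.46), where the members' own spreads were 0.90 and 0.93. Gpt2 was closest to Pde4dip (0.25), Evi5 (0.27) and Mars (0.27), and Got1 to Ttc7 (0.15), Abtb1 (0.16) and Dolpp1 (0.17). The spreads of Gpt2 and Got1 themselves were 0.51 and 0.76. Glul ran closest to Zdhhc14 (0.17), Ulk2 (0.23) and Fut11 (0.24), with a spread of 0.94 of its own. Got2, whose spread was only 0.19, was nearest to Pdha1, Ddb1 and Vps52 at 0.12 to 0.13.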

How the data were processed

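RNA sequencing libraries of 16 mouse macrophage cultures were analysed from a table of raw read counts per gene, which the authors deposited. The submitters' processing notes name the build mm10 and the tools HTSeq, STAR, edgeR, SAMtools and Trimmomatic 0.33 without saying what each did. The authors' deposited tables of comparisons give log2 fold changes and adjusted p-values, whose scaling is not stated in the sources used here. Gene lengths were taken as deposited, and symbols matched 97.6% of the gene IDs. Of the per-sample columns, 24 were not used.

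Counts were tested with edgeR 4.0.16 in R 4.3.3. The default filter left 11004 genes, libraries were scaled by TMM, and 4 group means were fitted to 16 libraries by robust quasi-likelihood, with two-sided tests and Benjamini-Hochberg adjustment over all genes tested. The common dispersion was 0.0438, a coefficient of variation of 20.9%. The code was tested on simulated data. Depth was 2871477 to 10043362 counts per library. Log2 levels use a prior count of 2 and ratios a prior count of 0.5.

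Same-numbered libraries deviated together, which was taken as a pairing: deviations from the group mean correlated across genes at 0.347 to 0.669 and 0.177 to 0.611 in the withdrawals with and without LPS, and for LPS at 0.122 to 0.415 without serine and 0.222 to 0.415 with it, the criterion being over 0.1 for each pair. Libraries of different numbers reached at most 0.162 and 0.0851 in the withdrawals with and without LPS. For LPS they reached at most 0.0887 without serine and 0.121 with it. Some of these exceed 0.1, so the criterion alone does not separate pairs from other libraries. In each comparison every same-numbered value lay above them. The model without the block remained the one reported first. No library was a copy of another, since over 120 pairs the chi-square divided by its degrees of freedom was at least 2.04.

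The members and the other gene lists were chosen with earlier results of these data known. All 9 members are named. Related genes are named if they are paralogs of members, passed in a withdrawal, or had the 2 largest changes in an LPS comparison, except that 1 such gene is not reported here. Alternatives were other scalings, no filter, the replicate block, DESeq2 1.42.0, fits on 2 groups and fits without each library. FPKM values and normalized counts were not used here.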

Additional observations from a re-analysis of the deposited data

Results flagged for a closer look

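Of 28 combinations of a tested member and a group, 1 had a library far from the rest of its group by Dixon's test, and chance flags about 1 in 20. It was Gpt2 in untreated cells with serine, where replicate 2 had 10.0 CPM against 13.2, 13.3 and 13.8 CPM in replicates 1, 3 and 4. The cause was not tested.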

How the results depend on the processing

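In the withdrawal with LPS, the number of members called higher was 1. It was 0 with total-count scaling, 2 in a fit on the 2 groups, 3 with DESeq2, 4 with the replicate block, 3 with the block and total counts, 4 with the block and RLE factors, 4 with the block once the shallowest library was left out (untreated, no serine, replicate 4), and 0 to 4 when leaving out each library with and without the block. In untreated cells it was 0, with 2 under the block, 2 with DESeq2, 3 with the block and without that shallow library, 1 with the block and no library numbered 1, 2 and 1 with the block and total counts or RLE factors, and 0 to 3 when leaving out each library. Averaged over LPS states it was 2, with 4 under the block, DESeq2, the block with RLE factors and the block without the shallow library, and 2 to 4 when leaving out each library. For LPS without serine 2 were higher, with 1 under total counts (with and without the block), no filter or the fit on 2 groups, and 1 to 3 when leaving out each library. With serine 1 was higher, 2 under the block without the shallow library and 1 to 2 when leaving out each library, and 3 were lower, 5 under total counts with and without the block. The block moved no other count by over 1.5 times, and no count of members lower changed in a withdrawal. Over all genes, the block called 73 of 11004 as higher in the withdrawal with LPS, and 6 of 10990 with no library numbered 1. The latter fit also had fewer libraries.

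Without the block, the Pck2 call with LPS was lost when leaving out any of 8 libraries: replicates 1, 2 and 4 with LPS and no serine, replicates 2, 3 and 4 with LPS and serine, and replicates 2 and 3 untreated with serine. It held under the block in 16 of 16 such fits, as did Asns in both withdrawals. Under the block, Aldh18a1 with LPS was lost without any of 6 libraries (replicates 1, 3 and 4 with LPS and no serine, 2, 3 and 4 with LPS and serine), and calls near the threshold were lost in most fits. Gpt2 in the withdrawal with LPS held only without replicate 4 untreated and lacking serine or replicates 2 or 4 untreated with serine, Pck2 in that without LPS only without replicates 1 or 4 untreated and lacking serine or replicate 3 untreated with serine, and Gpt2 in the LPS comparison without serine only without replicate 2 untreated and lacking serine or replicates 2 or 4 untreated with serine. Averaged over LPS states, Gpt2 held under the block only without replicate 4 of either untreated group. The call of Aldh18a1 with LPS and no serine was lost without any of 8 libraries (replicates 1, 2 and 4 of that group, 3 and 4 untreated without serine, and 1, 3 and 4 untreated with serine) and held under the block in 16 of 16. The averaged calls of Asns and Pck2 held in 16 of 16 fits with and without the block. The averaged call of Aldh18a1 under the block also held in 16 of 16.

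Signs turned only among estimates that missed the threshold without the block. Glul in the withdrawal with LPS was −0.046 with the block and no library numbered 1, and −0.12 to 0.16 when leaving out each library. The difference between the withdrawals ran from −0.32 to 0.094 for Asns, −0.16 to 0.061 for Got1 and −0.17 to 0.068 for Got2 when leaving out each library. For Got1 it was 0.00487 with total counts, 0.000281 with the block and total counts and 0.061 with the block without the shallow library, and for Got2 0.031 with total counts and 0.025 with the block and total counts. Gpt2 with LPS was −0.11 with total counts without serine, −0.10 with the block as well, and −0.31 to 0.049 with serine when leaving out each library. Aldh18a1 with LPS and serine was −0.029 with the block and total counts. The causes were not tested. Low counts limit Pycr1 and Bcat1.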
